A study of Homo sapiens with 18 samples.

Results

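Epithelial-mesenchymal transition is the change in which epithelial cells lose their junctions and take on the shape and matrix of mesenchymal cells. The 10 genes described here are SNAI1, SNAI2, TWIST1, ZEB1 and ZEB2, which encode transcription factors that drive the transition, CDH1 and EPCAM, which encode epithelial adhesion molecules, and CDH2, VIM and FN1, which encode mesenchymal products. They were taken by symbol from the 23106 genes listed for each sample, and all 10 were listed. PolyA+ RNA was sequenced from 3 cell lines in normoxia and hypoxia, with 3 replicates in each of the 6 groups and 18 samples in all. HKC-8 is a kidney proximal tubule line, RCC4+VHL is a kidney cancer line stably transfected with wild-type VHL, and HepG2 is a hepatocellular cancer line. No other allele or agent is named for any group, the HKC-8 and HepG2 cells carry no stated modification, and the labels do not say whether the RCC4+VHL line is a single clone. By the sample characteristics, hypoxia was 0.5% oxygen for 16 h in HKC-8 and HepG2 cells and 1.0% oxygen for 24 h in RCC4+VHL cells. Titles give 0.1% for hypoxic and 21% for normoxic HKC-8 samples. A figure legend of the study gives 0.5% oxygen for 16 h for the RNA sequencing of HKC-8, RCC4 and HepG2 cells. For RCC4+VHL cells the characteristics thus differ from that legend in both oxygen level and duration. The legend also names RCC4, a line that the study identified by a VHL mutation, and does not mention transfected VHL. Cell line and exposure cannot be told apart where the response of RCC4+VHL cells is set against that of another line. Nothing says that replicates were separate cultures, so that p-values measure the spread between these samples, which may be technical.

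In epithelial cells, E-cadherin, the product of CDH1, joins neighbouring cells, and the Snail, Slug, ZEB and Twist factors bind E-box sequences and repress it. Mesenchymal cells make N-cadherin, vimentin filaments and a fibronectin matrix. Hypoxia-inducible factor (HIF), whose alpha subunit VHL marks for destruction when oxygen is present, binds short core sequences at its target genes, and hypoxia is widely studied as a trigger of this transition in kidney and liver cancers.

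Promoter windows were printed for 4 of the genes, to set the sequence at their start sites beside the responses given further on. Windows of 250 bases before to 50 bases after a RefSeq start site on GRCh38.p14 matched 5 of the 10 genes, with 12 windows in all. No window was matched for SNAI1, SNAI2, TWIST1, CDH1 or EPCAM. The letters ACGTG and GCGTG, the 2 forms of the HIF core, and CAGGTG, an E-box, were searched on both strands, and matches stand in capitals. Matches on the reverse strand stand as their reverse complement, and a palindrome of the first core would count once on each strand.
VIM, chr10:17227991-17228290, plus strand: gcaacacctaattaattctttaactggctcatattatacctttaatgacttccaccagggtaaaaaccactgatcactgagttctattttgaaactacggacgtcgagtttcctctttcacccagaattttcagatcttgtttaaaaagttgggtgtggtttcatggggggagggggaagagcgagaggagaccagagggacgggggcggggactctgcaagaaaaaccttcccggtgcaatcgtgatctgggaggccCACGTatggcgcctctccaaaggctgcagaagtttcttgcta
ZEB2, chr2:144520070-144520369, minus strand: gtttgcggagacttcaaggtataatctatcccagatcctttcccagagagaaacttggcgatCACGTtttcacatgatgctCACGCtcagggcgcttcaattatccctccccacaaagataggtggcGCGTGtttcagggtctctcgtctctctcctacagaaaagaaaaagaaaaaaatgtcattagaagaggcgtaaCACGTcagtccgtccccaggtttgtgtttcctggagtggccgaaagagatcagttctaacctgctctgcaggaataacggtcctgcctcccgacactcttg
CDH2, chr18:28177081-28177380, minus strand: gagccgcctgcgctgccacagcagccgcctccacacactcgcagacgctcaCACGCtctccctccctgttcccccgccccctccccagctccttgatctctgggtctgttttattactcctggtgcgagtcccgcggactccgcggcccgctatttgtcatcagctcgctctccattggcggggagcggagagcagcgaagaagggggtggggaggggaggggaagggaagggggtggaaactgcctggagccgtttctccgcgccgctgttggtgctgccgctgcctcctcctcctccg
FN1, chr2:215436019-215436318, minus strand: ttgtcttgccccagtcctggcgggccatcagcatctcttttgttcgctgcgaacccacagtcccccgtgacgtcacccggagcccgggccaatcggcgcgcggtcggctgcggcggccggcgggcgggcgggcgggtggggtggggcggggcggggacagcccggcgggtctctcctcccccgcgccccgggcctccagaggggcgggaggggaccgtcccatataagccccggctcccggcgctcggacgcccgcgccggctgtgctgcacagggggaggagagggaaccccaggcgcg

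The VIM window held 1 HIF core, 8 bases after the start base, which is counted as 0. The ZEB2 window held 4 HIF cores, at -188, -169, -123 and -51. The first CDH2 window held 1 core at -199 and the second held none. None of the 3 motifs was in the FN1 window. ZEB1 had 7 windows, of which 3 held a HIF core and 2 held the E-box. Over all 35116 windows, 21.4% held ACGTG, 36.5% held GCGTG, 48.4% held either core and 20.6% held CAGGTG, so that a core in 6 of the 12 windows is near the share of all windows. A match is a description of letters and not a bound site.

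Levels below are counts normalised for library size (CPM, counts relative to the scaled total), with factors from the trimmed mean of M-values (TMM) over all 18 samples. Total counts ran from 40915980 to 97984260 per sample, with a median of 49849002, and 14550 to 16253 genes had a count. Of the genes fixed as a check of the oxygen labels, 10 of 10 tested rose in HKC-8, 8 of 8 in RCC4+VHL and 10 of 10 in HepG2 cells. NDRG1, a stress-responsive gene, rose by 4.72, 3.74 and 3.56 on the log2 scale. VEGFA, which encodes an angiogenic factor, rose by 1.72, 0.87 and 1.38. CA9, carbonic anhydrase IX, rose by 4.92 in HKC-8 and 8.45 in HepG2 cells and was too low to test in RCC4+VHL cells. All 12 liver markers were above 1 CPM in HepG2 cells. Of 12 kidney tubule markers, 8 were above 1 CPM in RCC4+VHL cells, 4 in HepG2 cells and 3 in HKC-8 cells, and the list summed to 304 to 317 CPM in normoxic HepG2 and 156 to 200.5 CPM in normoxic HKC-8 cells. In HKC-8 cells LRP2, a defining receptor of the proximal tubule, had at most 3 counts in any sample. PAX8, a kidney lineage factor, averaged 165 CPM in normoxic HKC-8 cells.

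The 3 lines stood far apart in normoxia, before any change of oxygen. VIM was 517-fold lower in HepG2 than in HKC-8 cells, ZEB2 was 224-fold lower, and EPCAM was 5.34-fold higher. Of 9 members tested in each pair, 7 differed between RCC4+VHL and HKC-8 cells, 8 between HepG2 and HKC-8 cells and 8 between RCC4+VHL and HepG2 cells (adjusted p below 0.05). Among all genes tested, 85.0%, 82.2% and 87.1% passed in these 3 comparisons, so the members' shares were near the background. TWIST1 was not tested, since it had no count in 16 of the 18 samples and 1 count in each of the other two, hypoxic HepG2 replicates 1 and 3. The limit that a count of 0 allows, 3 counts, was 0.0307 to 0.0776 CPM. In bulk samples, fewer cells of a kind and less RNA per cell cannot be told apart.

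**Figure D1:**
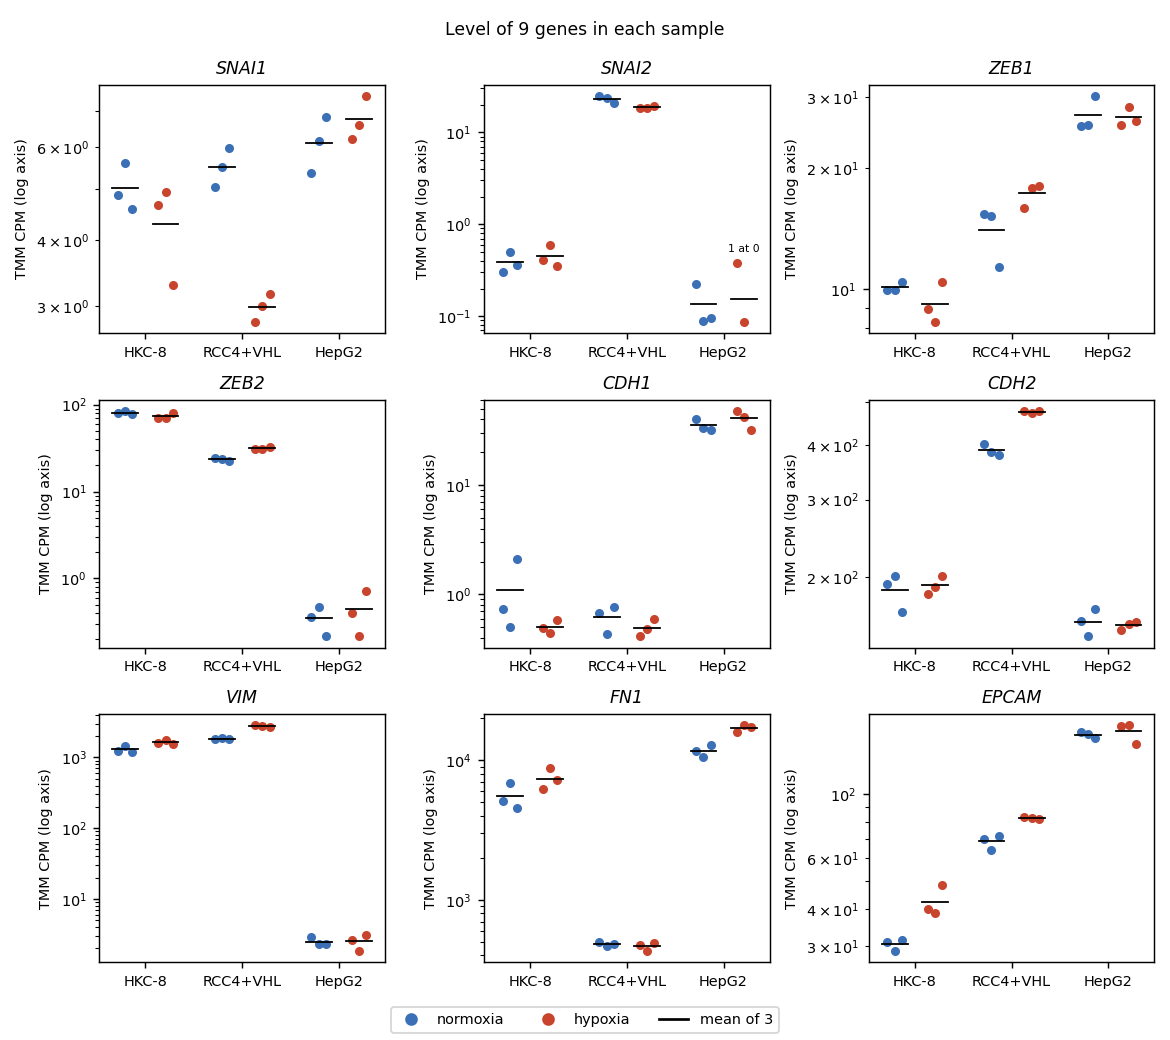
TMM-scaled CPM of 9 members in each sample (log axes that differ between panels; TWIST1, with 2 counts in all, is left out). Each point is 1 sample, blue for normoxia and red for hypoxia, and black bars are means of 3; the HepG2 hypoxic sample with 0 SNAI2 counts is marked as 1 at 0. Every HepG2 sample lies above every kidney line sample in CDH1 and below every one in ZEB2 and VIM, while every RCC4+VHL sample lies above the samples of the other lines in SNAI2 and below them in FN1.

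Levels can be compared between genes only per length, and are given here in normoxia as CPM per kb of the canonical transcript, for the 9 genes other than TWIST1. In HKC-8 cells FN1 (660.4 ± 144) and VIM (605 ± 67.6) were within their spread (SD, n = 3) of each other. CDH2 followed at 46.5 ± 4.52, then EPCAM at 19.6 ± 0.888 and ZEB2 at 8.69 ± 0.420. SNAI1 (2.94 ± 0.306) and ZEB1 (1.71 ± 0.0470) were lower, and CDH1 (0.230 ± 0.178) and SNAI2 (0.179 ± 0.0483) were lowest and did not differ beyond their spread. In HKC-8 cells FN1, VIM and CDH2 thus led the list and CDH1 was near its end. No normal tubule or liver cells were sequenced beside the lines. These orders therefore do not say whether a line had passed through the transition. RCC4+VHL cells had VIM first at 852 ± 17.8, then CDH2 at 96.8 ± 2.85, FN1 at 57.7 ± 2.03, EPCAM at 44.4 ± 2.57 and SNAI2 at 10.5 ± 0.957. Of the other factors there, ZEB2 (2.55 ± 0.107) and ZEB1 (2.36 ± 0.389) were within their spread of each other, below SNAI1 (3.23 ± 0.273), and CDH1 was at 0.130 ± 0.0358. HepG2 cells had FN1 first at 1400.2 ± 145, then EPCAM at 103 ± 2.37, CDH2 at 39.4 ± 2.86 and CDH1 at 7.33 ± 0.932. Below them in HepG2 cells came ZEB1 (4.55 ± 0.448), SNAI1 (3.58 ± 0.434) and VIM (1.15 ± 0.171), and SNAI2 (0.0629 ± 0.0356) and ZEB2 (0.0377 ± 0.0138) were lowest and within their spread of each other.

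In hypoxia, 2 of 9 tested members rose and none fell in HKC-8 cells, 5 rose and 2 fell of 9 in RCC4+VHL cells, and 1 rose and none fell of 8 in HepG2 cells. Beside these counts, 11.2% of all 13536 genes tested in HKC-8 cells rose and 9.12% fell, 25.9% of 12811 rose and 24.2% fell in RCC4+VHL cells, and 19.9% of 13623 rose and 19.2% fell in HepG2 cells. The median log2 fold change of the members was 0.039 in HKC-8, 0.27 in RCC4+VHL and 0.093 in HepG2 cells, against 0.00358, -0.00178 and -0.00441 over all genes tested. No member was called in all 3 lines. VIM and EPCAM were called in 2, SNAI1, SNAI2, ZEB1, ZEB2, CDH2 and FN1 in 1, and CDH1 in none. Replicate spread, as edgeR's biological coefficient of variation, came to 0.135 for HKC-8, 0.0437 for RCC4+VHL and 0.0733 for HepG2 cells, and the part of this difference in the counts of calls was not tested. The 95% intervals given below are not adjusted for the number of genes.

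**Figure D2:**
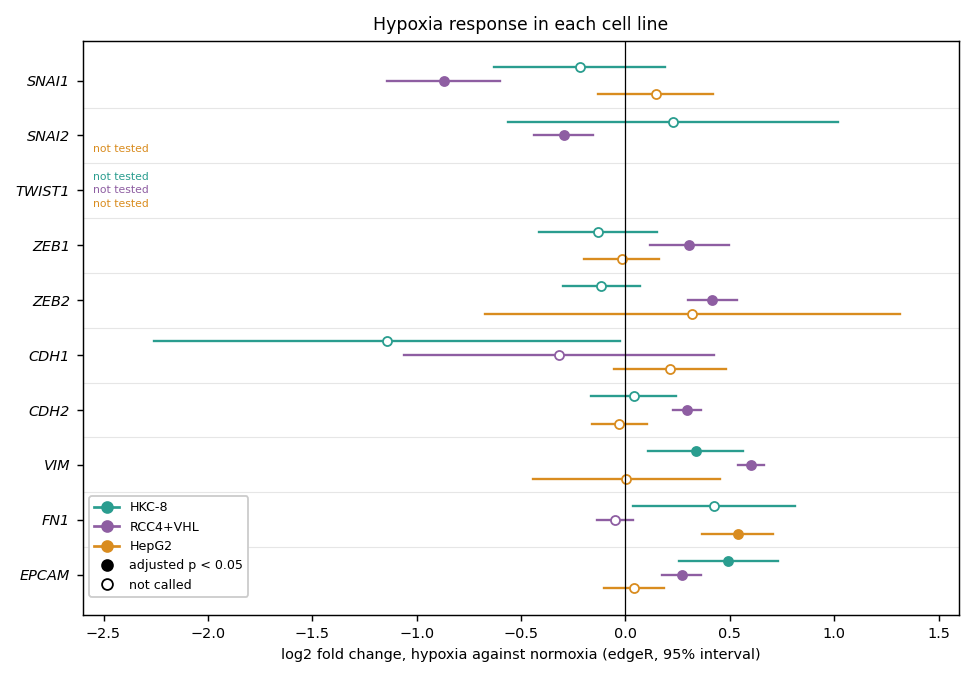
Log2 fold change (edgeR) of each member in hypoxia against normoxia, with 95% intervals, by cell line; filled points have an adjusted p below 0.05, and lines too low to test are marked. In RCC4+VHL cells SNAI1 lies at -0.87 and VIM at 0.60, FN1 lies at 0.54 in HepG2 cells, and the interval of CDH1 in HKC-8 cells is the widest shown.

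Among the transcription factors, SNAI1, the gene of Snail (chromosome 20, 48599517 to 48605423 on GRCh37, plus strand, 3 exons), fell in RCC4+VHL cells. Its CPM there were 5.04, 5.50 and 5.97 in normoxia and 2.80, 3.00 and 3.17 in hypoxia, with every hypoxic sample below every normoxic one. The log2 fold change was -0.87 (SE 0.13, adjusted p = 7.61e-06), and the call held in each of 13 alternative analyses. In HKC-8 cells the values were 4.86, 5.59 and 4.59 against 4.65, 4.93 and 3.29 in hypoxia, and in HepG2 cells 5.35, 6.16 and 6.83 against 6.21, 6.60 and 7.47. Both pairs of groups overlapped, with log2 fold changes of -0.22 (95% interval -0.63 to 0.19) and 0.15 (95% interval -0.13 to 0.42). The response in RCC4+VHL cells minus that in HepG2 cells was -1.03 (SE 0.18, adjusted p = 0.000387), tested as an interaction term. Against HKC-8 cells the difference was -0.67 (SE 0.22, adjusted p = 0.0570), and it passed with DESeq2 (adjusted p = 0.0299), with scaling by total counts, with at least 10 counts in every sample, in 1 fit of all 18 samples and without hypoxic HKC-8 replicate 3. In normoxia SNAI1 did not pass between any pair of lines, the adjusted p-values being 0.352 for RCC4+VHL against HKC-8, 0.0911 for HepG2 against HKC-8 and 0.370 for RCC4+VHL against HepG2.

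SNAI2, the gene of Slug (chromosome 8, 49830157 to 49834299, minus strand, 3 exons), had its highest level in RCC4+VHL cells. Its CPM there were 24.7, 23.5 and 20.6 in normoxia and 18.4, 18.2 and 19.2 in hypoxia, without overlap. Its fold change on the log2 scale was -0.30 (SE 0.068, adjusted p = 0.000922), a call lost in 1 fit of all 18 samples, where the adjusted p was 0.359. HKC-8 cells had 0.2998, 0.505 and 0.363 in normoxia and 0.414, 0.593 and 0.351 in hypoxia, a log2 fold change of 0.23 (95% interval -0.56 to 1.02). HepG2 cells had 10, 4 and 4 counts in normoxia and 16, 4 and 0 in hypoxia, and were not tested. Normoxic SNAI2 was 59.1-fold higher in RCC4+VHL than in HKC-8 cells (adjusted p = 1.85e-09) and 166-fold higher than in HepG2 cells (adjusted p = 3.75e-13). It was 2.76-fold lower in HepG2 than in HKC-8 cells (adjusted p = 0.0103), a call lost without normoxic HepG2 replicate 2 (adjusted p = 0.0579) or 3 (adjusted p = 0.05002).

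ZEB1 and ZEB2, which encode zinc-finger repressors of CDH1, both rose in RCC4+VHL cells. ZEB1 (chromosome 10, 31607424 to 31818742, plus strand, 9 exons) had CPM of 15.4, 15.2 and 11.3 in normoxia and 15.9, 17.8 and 18.1 in hypoxia. The groups did not overlap, though normoxic replicate 3 was lower than the other two. The log2 fold change of 0.31 (SE 0.091, adjusted p = 0.00760) was 0.18 without that sample (adjusted p = 0.0709), and in 1 fit of all 18 samples the adjusted p was 0.0669. HKC-8 cells had 9.95, 9.98 and 10.4 and then 8.91, 8.30 and 10.4, with a log2 fold change of -0.13 (95% interval -0.42 to 0.15). HepG2 cells, in which normoxic ZEB1 was highest, had 25.4, 25.6 and 30.1 and then 25.5, 28.4 and 26.2, with a log2 fold change of -0.018 (95% interval -0.20 to 0.16). Normoxic ZEB1 was 2.71-fold higher in HepG2 than in HKC-8 cells (adjusted p = 1.35e-07), 1.90-fold lower in RCC4+VHL than in HepG2 cells (adjusted p = 3.67e-06) and 1.39-fold higher in RCC4+VHL than in HKC-8 cells (adjusted p = 0.00631).

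The order of the lines was the opposite for ZEB2 (chromosome 2, 145121931 to 145278624, minus strand, 10 exons). HKC-8 cells had 79.2, 84.9 and 77.4 CPM in normoxia and 70.9, 71.1 and 80.2 in hypoxia. RCC4+VHL cells had 24.5, 23.7 and 22.5 and then 30.7, 31.1 and 32.2, every hypoxic sample being above every normoxic one. HepG2 cells had 0.363, 0.470 and 0.215 and then 0.405, 0.217 and 0.724, or 9 to 28 counts. On the log2 scale ZEB2 rose in RCC4+VHL cells by 0.42 (SE 0.057, adjusted p = 1.92e-06), and the call held in each of 13 alternatives. The log2 fold change was -0.12 (95% interval -0.30 to 0.068) in HKC-8 cells and 0.32 (95% interval -0.67 to 1.32) in HepG2 cells, where the interval is wide. ZEB2 was the member whose response differed between RCC4+VHL and HKC-8 cells, by 0.51 (SE 0.10, adjusted p = 0.00319). That was 1 of 9 members tested, where 15.2% of all 14203 genes passed. Normoxic ZEB2 was 3.39-fold lower in RCC4+VHL than in HKC-8 cells (adjusted p = 6.16e-09) and 67.6-fold higher than in HepG2 cells (adjusted p = 3.55e-13).

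Of the epithelial adhesion genes, CDH1, the gene of E-cadherin (chromosome 16, 68771195 to 68869440, plus strand, 16 exons), was not called in hypoxia in any line. HepG2 cells had 40.4, 33.6 and 31.9 CPM in normoxia and 48.0, 42.2 and 32.3 in hypoxia, with overlapping groups. The log2 fold change there was 0.21 (95% interval -0.056 to 0.48, adjusted p = 0.199), and without hypoxic replicate 3 it was 0.35 and passed (adjusted p = 0.0248). In HKC-8 cells CDH1 was at 0.731, 0.505 and 2.09 and then 0.489, 0.440 and 0.581, normoxic replicate 3 being well above the other two. The log2 fold change of -1.14 (95% interval -2.26 to -0.024, adjusted p = 0.133) was -0.30 without that sample, while in 1 fit of all 18 samples the adjusted p was 0.0223. RCC4+VHL cells had 22 to 34 counts in normoxia and 20 to 29 in hypoxia, or 0.672, 0.437 and 0.772 and then 0.412, 0.481 and 0.600 CPM, and a log2 fold change of -0.32 (95% interval -1.06 to 0.43). With so few counts a change inside that interval was not detectable in RCC4+VHL cells at this depth. Normoxic CDH1 was 31.8-fold higher in HepG2 than in HKC-8 cells (adjusted p = 9.95e-08) and 55.7-fold lower in RCC4+VHL than in HepG2 cells (adjusted p = 5.16e-13). The 2 kidney lines were not told apart in CDH1, with a log2 difference of -0.83 (95% interval -2.03 to 0.36, adjusted p = 0.166). Without normoxic HKC-8 replicate 2 the adjusted p was 0.0429, and without replicate 3 the difference was 0.021 (adjusted p = 0.958). Without that replicate 3 the log2 difference between HepG2 and HKC-8 cells moved from 4.99 to 5.85.

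EPCAM, an adhesion molecule of epithelia and many carcinomas (chromosome 2, 47572297 to 47614740, plus strand, 9 exons), rose in both kidney lines. HKC-8 cells had 30.9, 28.8 and 31.3 CPM in normoxia and 40.1, 38.9 and 48.7 in hypoxia. RCC4+VHL cells had 70.1, 64.3 and 71.9 and then 83.1, 82.5 and 81.8. In both lines every hypoxic sample was above every normoxic one. EPCAM rose by 0.49 (SE 0.11, adjusted p = 0.0128) on the log2 scale in HKC-8 cells, a call lost without normoxic replicate 1 (adjusted p = 0.0561) or 2 (adjusted p = 0.05003). In RCC4+VHL cells the log2 fold change was 0.27 (SE 0.045, adjusted p = 2.75e-05), called in each of 13 alternatives. HepG2 cells, with the highest level, had 163, 160.1 and 156 and then 171, 172 and 149, which overlapped, and a log2 fold change of 0.041 (95% interval -0.10 to 0.18). The responses of HKC-8 and HepG2 cells, whose labelled exposure is the same, differed by 0.45 (SE 0.12, adjusted p = 0.0354). EPCAM was the 1 of 9 members called in that interaction, where 9.30% of all 15046 genes passed, and leaving out any of 8 of the 12 samples ended the call (adjusted p up to 0.104). Those 8 were normoxic HKC-8 replicates 1 and 2, hypoxic HKC-8 replicate 3, normoxic HepG2 replicates 1 and 2 and all hypoxic HepG2 replicates. Normoxic EPCAM was 2.28-fold higher in RCC4+VHL than in HKC-8 cells (adjusted p = 1.74e-07) and 5.34-fold higher in HepG2 than in HKC-8 cells (adjusted p = 4.80e-11).

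On the mesenchymal side, CDH2, the gene of N-cadherin (chromosome 18, 25512843 to 25757910, minus strand, 16 exons), rose in RCC4+VHL cells. Its CPM were 401, 386 and 379 in normoxia and 477, 472 and 478 in hypoxia, without overlap. Hypoxia gave a log2 fold change of 0.30 (SE 0.032, adjusted p = 5.98e-08), called in each of 13 alternatives. HKC-8 cells had 193, 201 and 166 and then 183, 189.9 and 201, and HepG2 cells 159, 146 and 169 and then 151, 156 and 158. Their log2 fold changes were 0.039 (95% interval -0.17 to 0.24) and -0.029 (95% interval -0.16 to 0.10), both with overlapping groups. The response in RCC4+VHL cells was above that in HepG2 cells by 0.32 (SE 0.069, adjusted p = 0.00258). Against HKC-8 cells the difference was 0.24 (SE 0.091, adjusted p = 0.0991), which passed without normoxic HKC-8 replicate 3 (adjusted p = 0.00970). Normoxic CDH2 was 2.09-fold higher in RCC4+VHL than in HKC-8 cells (adjusted p = 3.28e-07). Between HepG2 and HKC-8 cells it differed by -0.22 (SE 0.093, adjusted p = 0.0480) on the log2 scale, with overlapping samples. That call was lost with DESeq2 (adjusted p = 0.0506), with median-of-ratios factors, and without any one of normoxic HKC-8 replicates 1 and 2 and normoxic HepG2 replicates 1 and 2, where the adjusted p reached 0.151.

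The ratio of CDH2 to CDH1, both per kb, lay between 95.4 and 477 in HKC-8 cells in normoxia and between 415 and 517 in hypoxia. In RCC4+VHL cells it ran from 588 to 1058 and from 954 to 1386, and in HepG2 cells from 4.72 to 6.36 and from 3.77 to 5.87. N-cadherin transcripts were thus more abundant than E-cadherin transcripts in every sample, and the oxygen groups overlapped in each line. Without normal cells of the same tissues, the ratio does not say whether a line had passed through the transition. The lowest HKC-8 ratio was that of normoxic replicate 3, the sample with the highest CDH1 of that line.

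**Figure D3:**
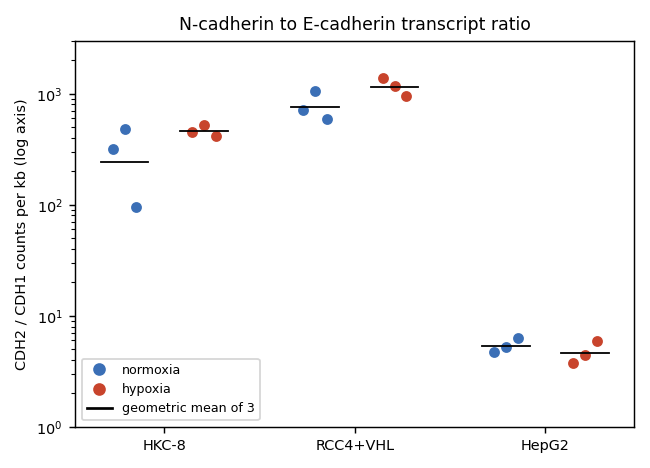
Ratio of CDH2 to CDH1 counts per kb of canonical transcript in each sample (log axis), blue for normoxia and red for hypoxia, with the geometric mean of 3 as a bar. HepG2 samples lie between 3.77 and 6.36, and all kidney line samples lie at 95.4 or above.

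VIM, the gene of vimentin (chromosome 10, 17270240 to 17279592, plus strand, 10 exons), rose in both kidney lines. RCC4+VHL cells had 1831, 1875 and 1799 CPM in normoxia and 2829, 2817 and 2685 in hypoxia, a log2 fold change of 0.60 (SE 0.030, adjusted p = 7.51e-14). All 13 alternatives kept that call. HKC-8 cells had 1242, 1469 and 1197 and then 1609.8, 1747 and 1568. Neither line's groups overlapped. The HKC-8 log2 fold change was 0.34 (SE 0.10, adjusted p = 0.0442), close to the threshold. It was lost with no filter on low counts (adjusted p = 0.0507) and without any one HKC-8 sample other than normoxic replicate 2, where the adjusted p ran up to 0.171 and the log2 fold change from 0.28 to 0.37. HepG2 cells had 95 to 128 counts in normoxia and 84 to 118 in hypoxia, or 2.901, 2.26 and 2.27 and then 2.62, 1.82 and 3.05 CPM. The HepG2 log2 fold change was 0.0046 (95% interval -0.44 to 0.45), and its sign changed with the scaling. RCC4+VHL cells responded more than HepG2 cells by 0.60 (SE 0.16, adjusted p = 0.0101), a call lost without normoxic HepG2 replicate 1 (adjusted p = 0.0561). The difference between RCC4+VHL and HKC-8 cells was 0.25 (SE 0.10, adjusted p = 0.111), and passed without normoxic HKC-8 replicate 3 (adjusted p = 0.0312). Normoxic VIM was 751-fold higher in RCC4+VHL than in HepG2 cells (adjusted p = 1.07e-16) and 1.42-fold higher than in HKC-8 cells (adjusted p = 0.000182).

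FN1, the gene of fibronectin (chromosome 2, 216225163 to 216300796, minus strand, 46 exons), was the member called in HepG2 cells. Its CPM there were 11667, 10572 and 13003 in normoxia and 16062, 17828 and 17294 in hypoxia, without overlap. This was a log2 fold change of 0.54 (SE 0.079, adjusted p = 0.000141), called in each of 13 alternatives. Hepatocytes also make and secrete fibronectin, as a plasma protein. HKC-8 cells had 5130.1, 6901 and 4592 and then 6259, 8788 and 7207, with overlap. Normoxic and hypoxic replicate 2 were each the highest of their group. The HKC-8 log2 fold change was 0.42 (95% interval 0.038 to 0.81, adjusted p = 0.110), and it passed with DESeq2 (adjusted p = 0.0452), with scaling by total counts (adjusted p = 0.0436), in 1 fit of all 18 samples (adjusted p = 0.0161) and without normoxic replicate 2 (adjusted p = 0.0275). RCC4+VHL cells had 502, 468 and 482 and then 475, 430.1 and 493, a log2 fold change of -0.050 (95% interval -0.13 to 0.035), which was -0.13 and passed when scaled by total counts (adjusted p = 0.00947). The response in RCC4+VHL cells minus that in HepG2 cells came to -0.60 (SE 0.093, adjusted p = 0.000113). SNAI1, CDH2, VIM and FN1 were the 4 of 9 members called in that interaction, where 22.6% of all 14813 genes passed. Between HKC-8 and HepG2 cells the FN1 responses differed by -0.12 (95% interval -0.55 to 0.32), not past the threshold. Normoxic FN1 was 11.4-fold lower in RCC4+VHL than in HKC-8 cells (adjusted p = 1.02e-08) and 2.15-fold higher in HepG2 than in HKC-8 cells (adjusted p = 2.84e-05).

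By annotation, 8 of the 10 genes, all but SNAI1 and FN1, overlap another annotated gene on the opposite strand, among them VIM-AS1, ZEB1-AS1 and ZEB2-AS1. Overlap was taken over whole gene spans, introns included, and not over the exons that were counted. The strand setting of the counting is not given in the sources used here. Whether reads of these overlapping genes were counted for a member, or left out as shared, is therefore not known.

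Wider lists of related genes set the members in context, and their counts stand beside the shares of all genes given above. Values in these paragraphs are log2 fold changes, and the lists themselves were not tested. Of 12 other transcription factors linked to the transition, 2 rose and 1 fell of 9 tested in HKC-8 cells, 3 rose and none fell of 9 in RCC4+VHL cells, and 3 rose and none fell of 5 in HepG2 cells. The list's median log2 fold changes were 0.019 in HKC-8, 0.29 in RCC4+VHL and 0.23 in HepG2 cells. ETS1, an oncogenic ETS factor, rose by 0.61, 0.71 and 0.90 in the 3 lines. SOX9, a factor of progenitor cells, rose by 0.68 in HKC-8 and 0.77 in HepG2 cells. HMGA2, an architectural chromatin protein, rose by 0.70 in RCC4+VHL and 0.23 in HepG2 cells. TCF4, which encodes an E-box binding factor, had a log2 fold change of -0.53 in HKC-8 cells and fell.

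Of 26 junction genes, 2 rose and none fell of 22 tested in HKC-8 cells, 8 rose and 7 fell of 23 in RCC4+VHL cells, and 10 rose and 5 fell of 23 in HepG2 cells. The medians were 0.11 in HKC-8, 0.054 in RCC4+VHL and 0.13 in HepG2 cells. DSP, the desmosome protein desmoplakin, rose by 0.63 in RCC4+VHL and 1.18 in HepG2 cells. CLDN3, a tight junction claudin, went opposite ways, with -0.78 in RCC4+VHL and 1.599 in HepG2 cells, where it was below 1 CPM, and the difference was -2.38 (SE 0.43, adjusted p = 0.000454). In RCC4+VHL cells PKP3, a desmosomal plakophilin, rose by 0.45, and CDH16, kidney-specific cadherin, was at -0.57 and fell. In HepG2 cells the tight junction genes TJP3 and MARVELD2 were at -1.38 and -0.66 and fell. CLDN1 and the virus receptor gene CXADR were the pair that rose in HKC-8 cells, by 0.56 and 0.45.

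For 22 genes of epithelial identity, 4 rose and none fell of 15 tested in HKC-8 cells, 4 rose and 5 fell of 13 in RCC4+VHL cells, and 8 rose and 1 fell of 18 in HepG2 cells. The medians were 0.11 in HKC-8, 0.0036 in RCC4+VHL and 0.38 in HepG2 cells. MUC1, a membrane mucin, rose by 2.28 in HKC-8 and 1.75 in RCC4+VHL cells, and KRT80, a keratin, rose by 0.83 in HKC-8 cells. ELF3, an epithelial ETS factor, was at -0.75 in RCC4+VHL and 1.24 in HepG2 cells, past the threshold in both, and the difference was -2.00 (SE 0.094, adjusted p = 1.32e-11). ESRP2, a splicing regulator of epithelia, rose by 1.06 in RCC4+VHL and 0.27 in HepG2 cells. Its mean in RCC4+VHL cells was low, 0.870 CPM in normoxia and 1.81 in hypoxia. GRHL1 was at -0.75 in RCC4+VHL cells and fell, from a mean of 1.58 to 0.932 CPM. In HepG2 cells SPINT2, a protease inhibitor, rose by 1.00, from a mean of 0.518 to 1.05 CPM. AP1M2, an adaptor of polarised sorting, was at -1.05 in HepG2 and -0.30 in RCC4+VHL cells and fell in both.

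Among 29 mesenchymal cytoskeleton and matrix genes, 5 rose and 1 fell of 22 tested in HKC-8 cells, 12 rose and 4 fell of 19 in RCC4+VHL cells, and 14 rose and none fell of 21 in HepG2 cells. The medians were 0.017 in HKC-8, 0.19 in RCC4+VHL and 0.55 in HepG2 cells. LOX, lysyl oxidase, which crosslinks collagen, rose by 2.19, 2.86 and 3.98 in the 3 lines. PDGFRB, a growth factor receptor, rose by 1.24 in HKC-8 and 0.53 in RCC4+VHL cells. The matrix glycoprotein gene SPARC was at -0.34 in HKC-8 cells and fell. THY1 and S100A4 were at -1.44 and -0.47 in RCC4+VHL cells and fell. S100A4 rose by 0.46 in HepG2 cells. Beside these counts, the summed level of 8 fibroblast markers, of which 7 are also in this list, was 13.4 to 23.0 CPM in normoxia and 24.3 to 28.9 in hypoxia in HKC-8 cells, 51.9 to 57.7 and 65.9 to 69.0 in RCC4+VHL cells, and 26.9 to 30.0 and 63.1 to 71.4 in HepG2 cells. In HepG2 cells 2 of the 8, PDGFRB and COL1A1, were above 1 CPM in either condition and rose by 1.42 and 0.55, while DCN, THY1 and FAP had at most 3 counts in any sample. The 6 endothelial markers summed to under 4 CPM in any sample.

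In the TGF-beta pathway, a main inducer of the transition, 7 rose and 2 fell of 22 tested in HKC-8 cells, 8 rose and 2 fell of 20 in RCC4+VHL cells, and 11 rose and 1 fell of 21 in HepG2 cells. The medians were 0.17 in HKC-8, 0.11 in RCC4+VHL and 0.33 in HepG2 cells. TGFBR3, a co-receptor, rose by 0.70 in RCC4+VHL and 0.80 in HepG2 cells, where the signal transducer gene SMAD3 rose by 0.75. In HKC-8 cells the ligand gene INHBA rose by 1.29 and LTBP2, a latency protein gene, by 0.89. LTBP3 rose by 0.40 in RCC4+VHL and by 0.46 in HKC-8 cells. SMAD3 was also called in HKC-8 cells, at 0.34 with overlapping groups. Genes are named here by the size of their change within a line, so a line not given may also have passed. The receptor TGFBR2 and the ubiquitin ligase SMURF2 were at -0.29 and -0.54 in HKC-8 cells, the ligands TGFB1 and BMP4 at -0.23 and -0.64 in RCC4+VHL cells, and the receptor ACVR1B at -0.36 in HepG2 cells, and each fell. TGFB1 rose by 0.49 in HKC-8 and 0.75 in HepG2 cells, BMP4 by 0.46 in HepG2 cells and SMURF2 by 0.19 in RCC4+VHL cells.

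**Figure D4:**
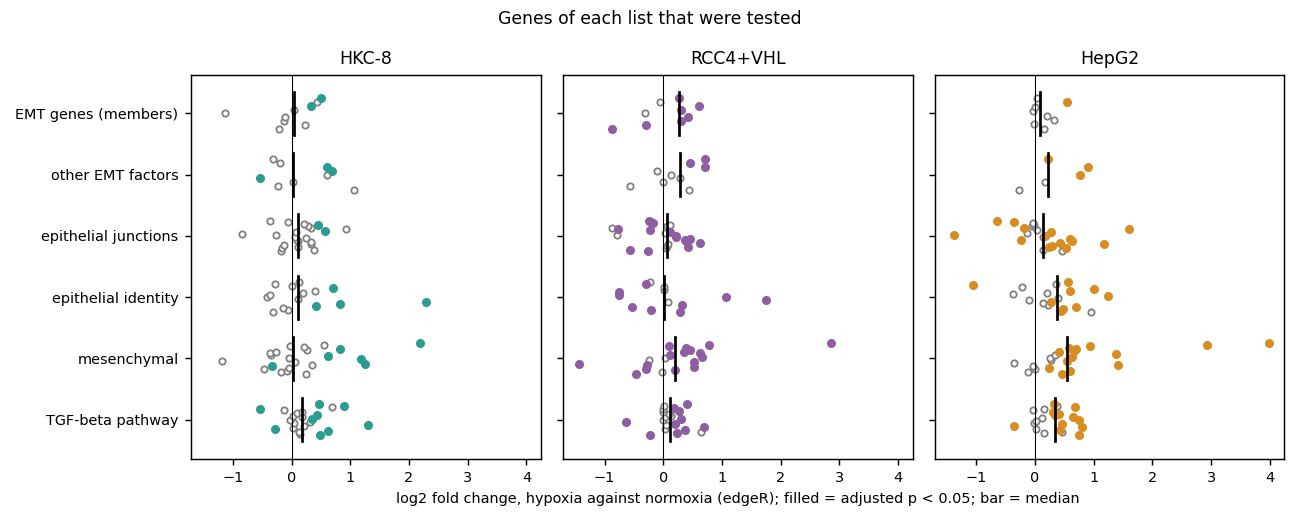
Log2 fold change in hypoxia against normoxia (edgeR) of every tested gene of the members and of 5 wider lists, one panel for each cell line; filled points have an adjusted p below 0.05 and black bars are medians. The mesenchymal list in HepG2 cells has the furthest median to the right, 0.55, with LOX at 3.98.

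The genes whose levels most resembled those of CDH1 over the 18 samples were MTTP (Pearson's r 0.994), ALOX12P2 (0.992) and DCAF11 (0.992), among 15307 genes with log2 CPM. Those most like VIM were FSTL1 (0.998), MSN (0.998) and KIAA1804 (0.998), and those most like FN1 were FRAS1 (0.998), WNK2 (0.996) and SCARB1 (0.996). The 18 points fall into 3 cell lines, and these values describe mostly the order of the lines.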

How the data were processed

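PolyA+ RNA libraries were made with the ScriptSeq v2 kit, and HKC-8 samples were each sequenced over a pair of lanes, per the labels. The authors trimmed reads with Trim Galore 0.3.3 and aligned them to GRCh37 with TopHat 2.0.8b and Bowtie 1.0.0. Uniquely mapped fragments were kept with SAMtools 0.1.19 and counted on UCSC genes with HTSeq 0.5.4p3 in intersection-strict mode. How reads of genes overlapping on opposite strands were treated depends on the strand setting, which is not given. The deposited values are raw counts per gene and sample. Everything from the counts on was computed with R 4.3.3, edgeR 4.0.16 and Python 3.11.15.

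Genes were kept with filterByExpr and scaled by TMM, and each comparison was fitted across all genes with glmQLFit and glmQLFTest, with Benjamini-Hochberg adjusted p-values under 0.05 called. Each cell line was fitted on its own 6 samples, differences in response as an interaction over 12 samples, and normoxic lines over 6. Standard errors were derived from each log2 fold change and its F statistic. The fits were tested on simulated data. Transcript lengths and positions came from GENCODE v44 on GRCh37, and promoter windows from RefSeq. DESeq2 1.42.0, other scalings and filters, a replicate block, 1 fit of all 18 samples and each sample left out were tried as alternatives. Between replicates the chi-square per degree of freedom of the counts was 4.57 to 91.5, so no pair was treated as 1 library.

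The 10 members and all lists were chosen with earlier results of these data known. Named in the text were all members and, per wider list and line, the 2 largest rises and 2 largest falls among called genes whose groups did not overlap, plus the 3 genes most like CDH1, VIM and FN1 and NDRG1, VEGFA and CA9. Other genes named, such as PAX8, LRP2 and markers at 0, were chosen after their values were seen. The kidney, liver, fibroblast, endothelial and leukocyte marker lists were used as checks.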

Additional observations from a re-analysis of the deposited data

Results flagged for a closer look

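The response to hypoxia differed between cell lines for 6 pairs of member and lines, each by a test of the difference itself (edgeR, interaction of cell line and oxygen, log2 scale). Between HKC-8 and HepG2 cells, EPCAM differed by 0.45 (SE 0.12, adjusted p = 0.0354), higher in HKC-8 cells. Between RCC4+VHL and HKC-8 cells, ZEB2 differed by 0.51 (SE 0.10, adjusted p = 0.00319), higher in RCC4+VHL cells. Between RCC4+VHL and HepG2 cells, SNAI1 differed by -1.03 (SE 0.18, adjusted p = 0.000387) and FN1 by -0.60 (SE 0.093, adjusted p = 0.000113), both lower in RCC4+VHL cells. CDH2 differed there by 0.32 (SE 0.069, adjusted p = 0.00258) and VIM by 0.60 (SE 0.16, adjusted p = 0.0101), both higher in RCC4+VHL cells. For the RCC4+VHL comparisons the labelled exposure also differs, and line and exposure cannot be told apart. Groups of 3 samples are too small for the check of single samples far from the rest.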

How the results depend on the processing

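Over 1166 comparisons of a member under an alternative, 1078 kept direction and side of the threshold, 28 lost a call, 32 gained one and 28 changed sign. The number of members called in hypoxia in HKC-8 cells was 2, and became 1 with no low-count filter, 3 with DESeq2, 3 with total count scaling, 4 in 1 fit of all 18 samples and 0 to 2 when each sample was left out. In HepG2 cells the count of 1 became 1 to 2 with a sample left out, and in RCC4+VHL cells the count of 7 became 8 with total count scaling, 5 in the fit of 18 samples and 6 to 7 with a sample left out. For the difference between HKC-8 and HepG2 cells, 1 became 2 in the fit of 18 samples and 0 to 1 with a sample left out. For RCC4+VHL against HKC-8 cells, 1 became 2 with DESeq2, 3 with total count scaling, 2 with at least 10 counts in every sample, 2 in the fit of 18 samples and 1 to 3 with a sample left out. For RCC4+VHL against HepG2 cells 4 became 3 to 5 with a sample left out. The normoxic counts of 7, 8 and 8 ran from 7 to 8, ran from 6 to 8 and stayed at 8 with a sample left out. With at least 10 counts in every sample they were 7, 6 and 6, and DESeq2 and median-of-ratios factors gave 7 for the second.

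No call was lost with the replicate block. Samples share a replicate number in the labels, and same-numbered deviations correlated at 0.0747 to 0.373 in HKC-8, 0.0391 to 0.0964 in HepG2 and -0.0193 to 0.0128 in RCC4+VHL cells. Differently numbered ones correlated at -0.396 to 0.101 in HKC-8, -0.0813 to -0.00228 in HepG2 and -0.0182 to 0.0275 in RCC4+VHL cells. Since HKC-8 replicate 1 was at 0.0747, the numbers were not taken to pair samples. HKC-8 replicates 2 and 3 were at 0.373 and 0.357, so a pairing in HKC-8 cells remains possible. In HepG2 cells every same-numbered value was above every differently numbered one, though none exceeded 0.0964. A pairing there remains possible too. With the replicate block, 4 members were called in HKC-8 and 2 in HepG2 cells, 2 differed between HKC-8 and HepG2 cells and 5 between RCC4+VHL and HKC-8 cells. The calls gained were FN1 (adjusted p = 0.000854) and CDH1 in HKC-8 cells, CDH1 in HepG2 cells, CDH1 between HKC-8 and HepG2 cells, SNAI1, ZEB1, VIM and FN1 between RCC4+VHL and HKC-8 cells, and EPCAM between RCC4+VHL and HepG2 cells.

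Besides those of SNAI1, CDH2 and VIM given above, differences in response that passed under other settings were CDH1 between HKC-8 and HepG2 cells in the fit of 18 samples and without normoxic HKC-8 replicate 2, FN1 between RCC4+VHL and HKC-8 cells with total count scaling and without normoxic HKC-8 replicate 2, ZEB1 there without hypoxic HKC-8 replicate 3, and EPCAM between RCC4+VHL and HepG2 cells with total count scaling and without normoxic HepG2 replicate 3 or hypoxic HepG2 replicate 2.

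Signs changed for log2 values near 0 or for genes with few counts, none of them called. VIM in HepG2 cells was -0.089 with total count scaling, -0.0016 in the fit of 18 samples and -0.0055 with the replicate block, and EPCAM there was -0.052 with total count scaling. With a sample left out, the hypoxia response ran from -0.041 to 0.10 for CDH2 and -0.020 to 0.46 for SNAI2 in HKC-8, -0.091 to 0.0054 for FN1 in RCC4+VHL, and -0.16 to 0.19 for VIM, -0.067 to 0.059 for ZEB1, -0.072 to 0.016 for CDH2 and -0.19 to 0.67 for ZEB2 in HepG2 cells. The difference HKC-8 minus HepG2 ran from -0.53 to 1.75 for SNAI2, -0.24 to 0.072 for FN1 and -0.78 to 0.079 for ZEB2. RCC4+VHL minus HepG2 ran from -0.25 to 0.60 for ZEB2 and -1.06 to 1.19 for SNAI2. For CDH1, RCC4+VHL minus HKC-8 ran from -0.038 to 1.16 in response and -1.19 to 0.021 in normoxia. The cause of these moves was not tested. HepG2 cells had at most 16 counts of SNAI2 and 28 of ZEB2 in any sample, so small changes in these were not detectable at this depth.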

Other observations

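Genes of the wider lists were also called for a difference in response between RCC4+VHL and HepG2 cells. Of 22 mesenchymal genes tested in that interaction (edgeR), 2 had a higher and 11 a lower log2 fold change in RCC4+VHL cells. The median difference was -0.28 on the log2 scale, against 22.6% of all genes called in either direction. Of 18 genes of epithelial identity, 3 were higher and 8 lower, with a median of -0.40. Of 24 junction genes 2 were higher and 5 lower, and of 22 genes of the TGF-beta pathway 1 was higher and 4 lower. Higher and lower here give the sign of the difference in log2 fold change, and not a level or the size of a response. ACVR1B, the TGF-beta pathway gene counted as higher, was at 0.045 in RCC4+VHL and -0.36 in HepG2 cells. Between HKC-8 and HepG2 cells, 4 of 23 mesenchymal genes were lower in HKC-8 cells and none higher, against 9.30% of all genes called in either direction. Between RCC4+VHL and HKC-8 cells, 5 of 22 mesenchymal genes were higher and 4 lower in RCC4+VHL cells, against 15.2% of all genes.

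Among 6 leukocyte markers, LYZ averaged 2415 CPM in normoxic and 2786 in hypoxic HepG2 cells, while PTPRC, which defines leukocytes, had at most 3 counts in any HepG2 sample. In the other two lines LYZ was below 0.1 CPM on average, and the leukocyte list summed to at most 14.3 CPM in any sample.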
